A study of Mus musculus with 14 samples.

Results

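Pancreatic islets of mice lacking the Toll-like receptors 2 and 4 (Tlr2/Tlr4 double knockout, DKO) were compared after 7 months and after 5 weeks of high-fat feeding. The comparison rests on 6 of the 14 arrays of the series, 4 from DKO mice at 7 months and 2 from DKO mice at 5 weeks, which are all the DKO arrays given. Both groups carry the same double knockout on a C57BL/6 background, and both ate the same diet, with 60% fat, from 6 weeks of age. Mice at the later time were therefore also older, so time on the diet and age cannot be told apart. No group on another diet is among the samples, and the labels give neither the sex of the mice nor whether knockout and wild-type mice were littermates. The other 8 arrays, 4 at each time, are from wild-type C57BL/6 (WT) mice on the same diet and serve here only for comparison. By the wording of the labels each sample is the islets of a separate mouse, hybridised to a single whole-transcript expression array. All differences are on the log2 scale of the deposited signals, with the SE of the fitted model, and a gene is said to rise or fall only where its limma adjusted p over all 18820 genes tested was below 0.05.

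An islet holds insulin-secreting beta cells, glucagon-secreting alpha cells, somatostatin-secreting delta cells and rarer cells that make pancreatic polypeptide or ghrelin, set in a dense bed of capillaries. During high-fat feeding beta cells face a lasting demand for insulin, which loads the endoplasmic reticulum (ER) where the hormone is folded and which mice can meet by enlarging the beta cell mass. Toll-like receptors 2 and 4 sense bacterial lipopeptides and lipopolysaccharide on immune and other cells, and the title of the series concerns their part in this growth of the beta cell mass in obesity.

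The arrays had much the same distribution of signal, with medians over all probe sets between 3.89 and 3.98. The hormone genes that define islets were bright on all 6 DKO arrays, with Ins2 at 11.87 to 11.91, Iapp at 12.62 to 12.92 and Gcg at 11.91 to 12.91. Several arrays stood apart. The 5-week arrays differed from each other in proliferation genes, Mki67 being 3.52 in replicate 1 and 6.22 in replicate 2. At 7 months, replicate 2 was the lowest of its group for many of the genes that rose, and replicate 4 was high in genes of T, NK, B and plasma cells. Acinar genes had mean levels, relative to all 14 arrays, of 1.09 and 0.66 at 5 weeks and of 0.05, 0.27, -0.04 and 0.43 at 7 months.

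The targeted genes were examined first. Tlr2 had a signal of 4.77 and 4.82 at 5 weeks and of 5.35, 5.29, 5.41 and 5.18 at 7 months. All 7-month arrays lay above both 5-week arrays, and all 6 lay below the WT means of 6.45 ± 0.17 (SD, n = 4) at 5 weeks and 6.37 ± 0.14 (n = 4) at 7 months. Within DKO islets Tlr2 rose by 0.51 ± 0.12 (limma adjusted p = 0.0182), with a two-sided exact permutation p of 0.0667, the smallest that 15 splits of the arrays allow. That rise was no longer called without 5-week replicate 1 or without 5-week replicate 2. Tlr4, a dimmer probe set, was 3.23 and 3.19 at 5 weeks and 3.48, 3.60, 2.85 and 3.29 at 7 months, groups that overlap (0.09 ± 0.20, adjusted p = 0.844; exact permutation p = 0.8). The sources used here do not say where the probe sets lie relative to the deleted parts of either gene.

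Of the 18820 genes, 1424 passed the test (7.57%), 915 of them higher at 7 months (4.86%) and 509 lower (2.7%). A change of at least 2-fold was seen for 282 of them, 163 higher and 119 lower. The median difference over all genes was 0.02 and the median SE 0.14. When each array was centred on its median, 76.1% of the calls were higher, against 64.3% as deposited. Called genes were spread unevenly over brightness, with 11 higher and 41 lower among the dimmest 4705 genes and 399 higher and 135 lower among the brightest 4705. The count depended on single arrays. It was 378 without 5-week replicate 1, 1145 without 5-week replicate 2, and 1058, 2051, 938 and 1229 without 7-month replicates 1 to 4 in turn. Of the 1424 genes, 255 passed whichever DKO array was left out, 152 higher and 103 lower. With only these 6 arrays in the fit 347 genes passed, and with the acinar mean as a covariate 891.

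The largest changes were not of one kind of gene. Among the rises were Vstm2a, which encodes a secreted protein, Aldh1a3, which encodes a retinoic acid-forming enzyme often read as a sign of beta cell dedifferentiation, the adhesion protein gene Clmp, the fatty acid transporter gene Cd36, the carrier gene Serpina7, which encodes thyroxine-binding globulin, and the peptide hormone gene Cck. Among the falls were the imprinted gene Peg10, the mesothelial surface protein gene Msln, the pyruvate dehydrogenase kinase gene Pdk4, the heparan sulfate sulfotransferase gene Ndst4 and the neuropeptide genes Npy and Vip. Vstm2a was 2.70 and 3.27 at 5 weeks and 6.73, 5.88, 6.61 and 6.61 at 7 months, a rise of 3.47 ± 0.36 (11.1-fold, adjusted p = 6.86e-05). Msln was 5.81 and 6.80 at 5 weeks and 2.46, 3.33, 2.72 and 2.99 at 7 months, a fall of 3.43 ± 0.30 (10.8-fold, adjusted p = 1.55e-05). Neither gene's groups overlapped, and among the 20 largest rises and 20 largest falls the groups overlapped only for Cck, whose 7-month replicate 2 lay within the 5-week range. These genes were chosen by the size of their change in the same arrays, which favours separation, so this count is not separate support. Over all 18820 genes the groups did not overlap for 26.7%.

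**Figure D1:**
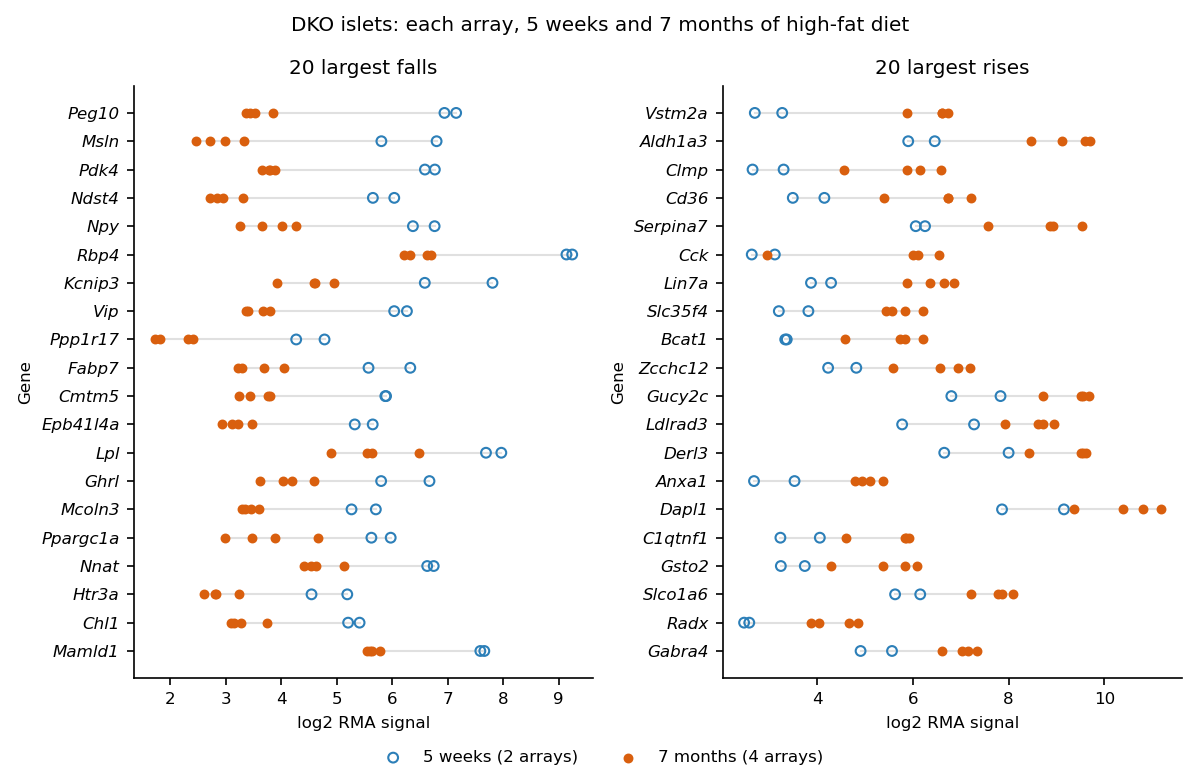
Signal (log2 RMA, horizontal axis) of the 20 genes with the largest falls and the 20 with the largest rises in DKO islets, 1 point per array, open blue for the 2 arrays at 5 weeks and filled orange for the 4 at 7 months. The genes were chosen by the size of their change in these arrays, which favours groups that are apart. The groups are apart for each gene shown except Cck, whose 7-month replicate 2 (2.96) lies between the 5-week arrays (2.64 and 3.12).

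Whichever DKO array was left out, 31 of these 40 genes kept their call. The exceptions were Ghrl, C1qtnf1, Derl3, Gucy2c, Zcchc12 and Gabra4, lost without 5-week replicate 1, Gsto2, lost without 5-week replicate 2, Dapl1, lost without 5-week replicate 1 or 7-month replicate 3, and Cck, which passed in the fit without 7-month replicate 2 and in none of the other 5. For 24 of the 40 the mean of the lower group was below the medians of all arrays, so the sizes of those changes are not exact. Among the genes described here these are Vstm2a, Clmp, Cd36, Cck, Slc35f4, Bcat1, Anxa1, C1qtnf1 and Gsto2 upward, and Peg10, Msln, Pdk4, Ndst4, Npy, Vip, Fabp7, Ppargc1a, Htr3a and Mcoln3 downward. Among genes with smaller changes the same holds for Adgre1, Hsd11b1, Itgam, Mrc1, Slco1a5 and Vnn1 upward, and for Cacna2d2, Cacng4, Cxcl13, Dlk1, Doc2b, Efnb3, Erp27, Ffar4, Gpm6a, Grp, Irx1, Pycard, Scd1, Sema3e, Sstr2 and Ust downward.

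Many genes of the endocrine cells other than beta cells fell. Of 16 measured genes of delta, pancreatic polypeptide and epsilon cells 10 fell and 1 rose (68.75%, against 7.57% of all genes called). Their median difference was -0.99, against 0.02 over all genes. Of 15 alpha cell genes 8 fell and 0 rose (53.3%), with a median of -0.74. In bulk islets fewer cells of a type and less RNA per cell cannot be told apart. Leaving out 5-week replicates 1 and 2 and then 7-month replicates 1 to 4 in turn gave 8, 7, 10, 9, 9 and 10 falls in the former list, and 7, 7, 8, 8, 8 and 8 in the alpha cell list. In WT islets 7 of the 15 alpha cell genes fell, with a median of -0.71, and 2 of the 16 other genes, with a median of -0.27. Over all genes 1.01% fell in WT.

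Of the hormones themselves, somatostatin, which restrains insulin and glucagon secretion, had the tightest values. Sst was 12.78 and 12.85 at 5 weeks and 11.85, 11.89, 11.58 and 11.65 at 7 months. The 7-month arrays were all lower, and the fall was 1.07 ± 0.10 (adjusted p = 3.5e-05). Pyy, encoding peptide YY, was 12.12 and 12.10 at 5 weeks and 10.48, 10.87, 10.31 and 10.25 at 7 months, a fall of 1.63 ± 0.14 (3.1-fold, adjusted p = 1.64e-05). Ppy, the pancreatic polypeptide gene, fell by 1.23 ± 0.20 (adjusted p = 0.00207), from 12.78 and 12.58 to between 11.17 and 11.82. The ghrelin gene Ghrl fell from 6.67 and 5.80 to between 3.61 and 4.60 (-2.13 ± 0.42, adjusted p = 0.00632), and without 5-week replicate 1 it did not pass. Glucagon changed least of these: Gcg was 12.81 and 12.91 at 5 weeks and 12.23, 12.26, 11.96 and 11.91 at 7 months (-0.77 ± 0.11, adjusted p = 0.000664).

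Several other genes that mark these cells fell with the hormones. Differences were above 0 for 5 of the 15 alpha cell genes and for 4 of the 16 delta, pancreatic polypeptide and epsilon genes. Rbp4, the retinol carrier that in islets marks delta cells, was 9.14 and 9.25 at 5 weeks and 6.62, 6.70, 6.21 and 6.33 at 7 months (-2.73 ± 0.17, adjusted p = 1.02e-06), a 6.64-fold fall with no overlap. The alpha cell transcription factor genes Irx2 (-1.76 ± 0.16) and Irx1 (-1.57 ± 0.18) fell, as did Gria3, a glutamate receptor subunit of alpha cells (-1.34 ± 0.18), Sema3e, a guidance signal (-1.48 ± 0.22), and Efnb3, an ephrin ligand (-1.39 ± 0.17). Sstr2, the somatostatin receptor through which delta cells act on alpha cells, fell from 4.48 and 4.56 to between 2.74 and 3.66 (-1.39 ± 0.24, adjusted p = 0.00268). All 7 of these genes passed whichever DKO array was left out. The 1 rise in the delta list was that of Lepr, the leptin receptor gene (0.76 ± 0.21, adjusted p = 0.0373), which was singled out here after its value was seen; with single arrays left out the list had 1 rise without 7-month replicate 4 and 0 by limma in the other 5 fits.

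Sst is a classical target of cAMP signalling, through the cAMP response element TGACGTCA upstream of its start. This motif, which reads the same on both strands, was searched in the 250 bases upstream of each RefSeq start. It occurs in 1.55% of 32851 such windows, or in 2.39% of the 14749 measured genes with a window, and in 6 of the 48 alpha, delta, pancreatic polypeptide, epsilon, neuropeptide and granin genes with a window. Of these 6, Sst and Sstr2 fell, Cartpt and Chgb rose, and Scg2 (0.23 ± 0.09) and Ucn (0.07 ± 0.14) did not pass, so genes with the same motif went both ways. The stretches around the motif in the 4 genes that changed are shown 5′ to 3′ on the gene's strand, with the motif in capitals. They come from RefSeq promoters on GRCm38.p6, at chr16:23890845-23890932 (Sst, minus strand), chr11:113619229-113619316 (Sstr2, plus), chr13:99900748-99900835 (Cartpt, minus) and chr2:132781530-132781617 (Chgb, plus), and none holds another of the 3 motifs searched.
Sst: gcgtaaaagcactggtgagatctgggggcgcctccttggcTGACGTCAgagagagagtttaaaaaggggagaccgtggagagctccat
Sstr2: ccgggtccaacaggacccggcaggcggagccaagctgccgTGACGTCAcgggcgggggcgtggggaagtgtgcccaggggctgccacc
Cartpt: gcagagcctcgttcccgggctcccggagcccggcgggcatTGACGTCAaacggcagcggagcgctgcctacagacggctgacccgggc
Chgb: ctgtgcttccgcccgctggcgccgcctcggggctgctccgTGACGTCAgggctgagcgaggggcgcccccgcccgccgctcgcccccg
The motif lies 48 to 41 bases upstream of the start in Sst, 58 to 51 in Sstr2, 112 to 105 in Cartpt and 72 to 65 in Chgb.

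Peptide and granin genes divided. Of 29 measured neuropeptides and granins 6 rose and 4 fell (34.5%, against 7.57% of all genes called), with a median of 0.00. With only the 6 DKO arrays in the fit 3 fell and 0 rose by limma. Npy, encoding neuropeptide Y, was 6.37 and 6.77 at 5 weeks and 3.26, 4.01, 4.26 and 3.65 at 7 months (-2.77 ± 0.25, adjusted p = 1.64e-05). Vip, encoding the vasoactive intestinal peptide of islet nerves, was 6.27 and 6.04 at 5 weeks and 3.68, 3.36, 3.80 and 3.40 at 7 months (-2.59 ± 0.22, adjusted p = 1.21e-05). Both were clearly apart between times, and the gastrin-releasing peptide gene Grp also fell (-1.18 ± 0.24, adjusted p = 0.0071).

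Other peptide genes rose. Cartpt, encoding the peptide CART, was 4.13 and 3.92 at 5 weeks and 6.07, 4.78, 5.95 and 5.68 at 7 months (1.59 ± 0.27, adjusted p = 0.00263). Cck, encoding cholecystokinin, was 3.12 and 2.64 at 5 weeks and 6.54, 2.96, 6.01 and 6.11 at 7 months. Its rise of 2.53 ± 0.67 (adjusted p = 0.0321) thus rested on 3 of the 4 arrays, replicate 2 being at the level of the 5-week arrays. The dynorphin precursor gene Pdyn (1.64 ± 0.38, adjusted p = 0.0178), a gene singled out after its value was seen, the granin gene Vgf (1.23 ± 0.24) and Chgb, which encodes chromogranin B (0.52 ± 0.14), rose as well. Without 5-week replicate 1, Grp, Cck and Chgb no longer passed, and without 5-week replicate 2 neither did Vgf, Cck and Chgb. Chgb was also lost without 7-month replicates 1 or 3, and with each array left out in turn the list had between 2 and 7 rises and between 2 and 4 falls.

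**Figure D2:**
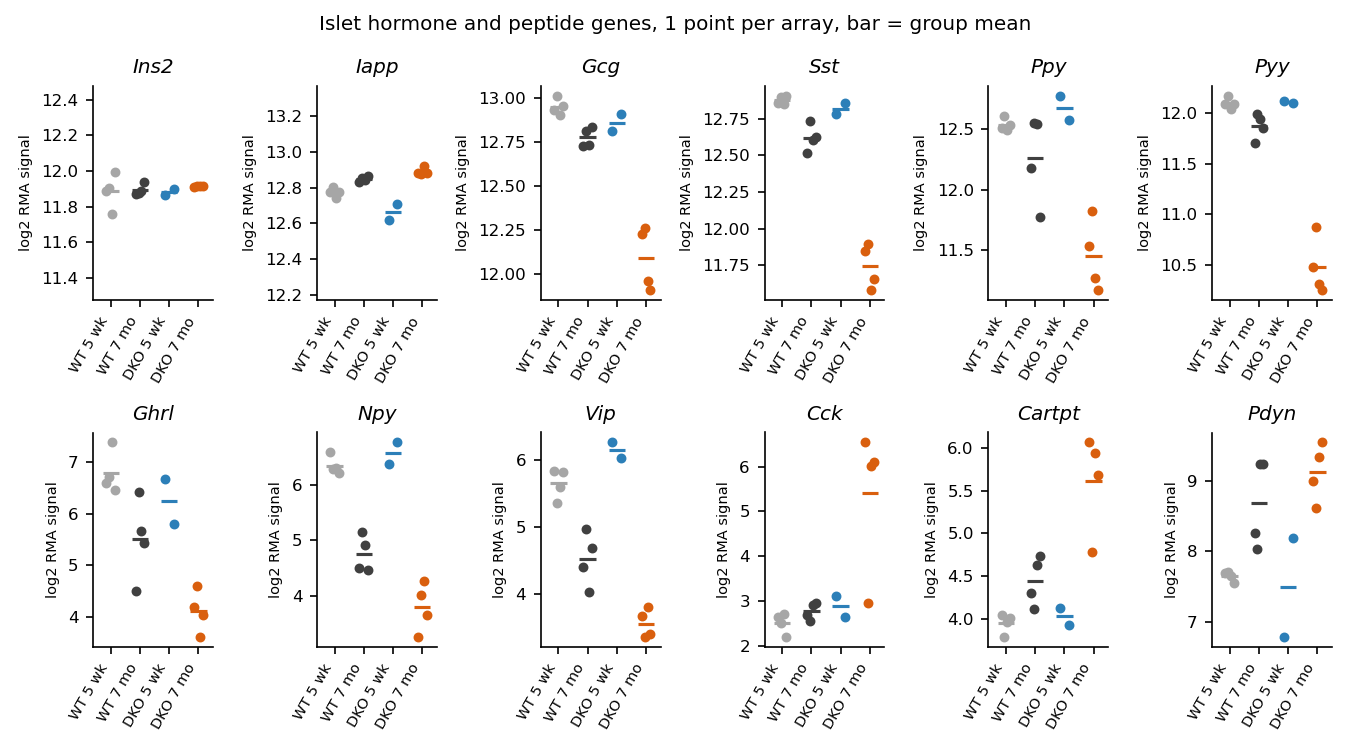
Signal (log2 RMA, vertical axis, each panel with its own range) of 12 hormone and peptide genes in all 14 arrays, 1 point per array, with a bar at each group mean. Ins2 stays at 11.87 to 11.91 in DKO arrays, Sst, Ppy, Pyy, Npy and Vip at 7 months lie below all DKO 5-week arrays, and in Cck and Cartpt replicate 2 is the lowest DKO array at 7 months.

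Beta cell genes were called about as often as all genes (7.57%), with 5% of the transcription factor genes and 12% of the genes of maturity and glucose sensing. Of 20 beta cell transcription factor genes 1 fell, Sim1 (-0.79 ± 0.15, adjusted p = 0.00542), and 0 rose. Mafa, an activator of insulin genes in mature beta cells, was 8.25 and 7.85 at 5 weeks and 6.93, 7.99, 7.26 and 7.34 at 7 months, groups that overlapped (-0.67 ± 0.22, adjusted p = 0.0822). Of 25 genes of maturity and glucose sensing Chgb rose while Nnat, a regulator of insulin processing (-2.02 ± 0.29), and Robo2, a guidance receptor (-0.97 ± 0.15), fell. Ins2 was almost the same in all 6 arrays (0.03 ± 0.08, adjusted p = 0.888), which shows only that its probe set read alike; whether that probe set can register a change at this level was not tested. Sim1 was lost without 5-week replicate 1, and without 7-month replicate 2 the transcription factor list had 3 falls and the maturity list 2 rises and 7 falls. The rise of Chgb is the one described above, which 4 of the 6 arrays could each remove.

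Of 20 genes of dedifferentiated and immature beta cells 3 rose and 0 fell (15%, against 7.57% of all genes called). Aldh1a3 was 5.90 and 6.46 at 5 weeks and 9.59, 8.47, 9.71 and 9.12 at 7 months, a rise of 3.04 ± 0.33 (8.24-fold, adjusted p = 0.000102). Serpina7 was 6.06 and 6.25 at 5 weeks and 8.87, 7.57, 9.53 and 8.92 at 7 months (2.56 ± 0.36, adjusted p = 0.000689). Both were lowest in 7-month replicate 2 yet above the 5-week arrays. Cd44, a hyaluronan receptor, rose by 1.22 ± 0.16 (adjusted p = 0.00042), and the median of the list was 0.02, that of all genes. Among 27 genes that beta cells normally keep off (disallowed genes) 2 rose (7.41%, against 7.57% of all genes called), Hsd11b1, which regenerates glucocorticoids (0.98 ± 0.28), and the Fc receptor gene Fcgrt (0.71 ± 0.14). Both were lost without 5-week replicate 1, and Hsd11b1 also without 7-month replicates 1, 3 or 4.

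Imprinted genes, which are expressed from the allele of a single parent and mostly act in fetal growth, were often lower. Of 20 measured, 10 fell and 0 rose (50%, against 7.57% of all genes called), with a median of -0.48. All 7-month arrays lay below both 5-week arrays for 12 of the 20, against 11.1% of all genes. Peg10 was 6.94 and 7.15 at 5 weeks and 3.44, 3.52, 3.86 and 3.37 at 7 months, an 11.3-fold fall (-3.50 ± 0.20, adjusted p = 4.14e-07). Dlk1, an inhibitory Notch ligand of endocrine precursors, was 5.67 and 5.19 and then 3.91, 3.72, 3.57 and 3.28 (-1.81 ± 0.23, adjusted p = 0.000282). The insulin receptor adaptor gene Grb10 (-1.02 ± 0.15) and the zinc finger gene Plagl1 (-1.0 ± 0.19) fell too, the latter not without 5-week replicate 1. Peg10 also stands in the alpha cell list and Nnat in the beta cell list. With each DKO array left out in the order used above, 6, 7, 8, 11, 7 and 9 members fell, and with only the 6 DKO arrays in the fit 4. In WT islets 6 of the 20 fell, with a median of -0.14, against 1.01% of all genes there.

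Proliferation genes showed no common change. Of 70 genes of G2 and mitosis 0 passed by limma, and of 46 DNA replication genes only Rpa1, a subunit of the single-strand binding protein, rose (0.40 ± 0.10, adjusted p = 0.0293). The arrays were far from alike: the mean of the mitosis list relative to all arrays was -0.30 and 0.51 at 5 weeks and 0.21, -0.29, 0.07 and 0.16 at 7 months, so the 5-week arrays bracketed the others. Mki67, present in dividing cells, was 5.57, 3.83, 5.02 and 5.13 at 7 months (0.02 ± 0.67, adjusted p = 0.992), and the topoisomerase gene Top2a differed by -0.07 ± 0.59. Ccnd2, a cyclin of beta cell replication, was 11.49 and 11.39 at 5 weeks and 10.85, 11.11, 11.13 and 11.39 at 7 months (-0.32 ± 0.13, adjusted p = 0.156). The polycomb methyltransferase gene Ezh2, whose product silences Cdkn2a, (-0.07 ± 0.18) and the cell cycle inhibitor gene Cdkn2a (0.33 ± 0.16, adjusted p = 0.245) did not pass either. In a list of 19 genes, mainly D-type cyclins, their kinases and inhibitors, only Ccng1 rose (5.26%, against 7.57% of all genes called). Ccng1 encodes a G-type cyclin, and its rise (0.43 ± 0.11) was lost without any of 4 arrays (both at 5 weeks and 7-month replicates 1 and 3). Without 5-week replicate 1 the mitosis list had 3 falls, and without 7-month replicate 2 the replication list had 5 rises. Rpa1 was lost without 5-week replicate 1 or 7-month replicate 1.

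Genes of protein folding and ER-associated degradation tended upward. Of 39 measured genes of the unfolded protein response and the ER, 5 rose and 0 fell (12.8%, against 7.57% of all genes called). Of the 39 differences 31 were above 0, and the median was 0.29. Derl3, part of the channel that returns misfolded proteins to the cytosol, was 6.66 and 8.0 at 5 weeks and 9.55, 8.43, 9.52 and 9.62 at 7 months (1.95 ± 0.45, adjusted p = 0.016). The 5-week arrays differed from each other by more than 7-month replicate 2 did from the higher of them. Dnajc3, a cochaperone that restrains the kinase PERK, was 10.23 and 10.56 and then 11.05, 10.65, 11.18 and 11.22 (0.63 ± 0.16, adjusted p = 0.0236). Sel1l, the scaffold of the degradation complex (0.56 ± 0.12), Edem1, which picks misfolded glycoproteins (0.53 ± 0.14), and the isomerase gene Fkbp2 (0.41 ± 0.10) also rose. The list was sensitive to single arrays, with 0, 4, 3, 17, 2 and 3 rises when the DKO arrays were left out in the order used above, and it had 2 with the acinar mean as a covariate and 0 by limma with only the 6 DKO arrays in the fit. Each of the 5 was lost without 5-week replicate 1. Dnajc3 was also lost without 7-month replicates 3 or 4, Edem1 without 7-month replicates 1, 3 or 4, and Fkbp2 without 5-week replicate 2 or 7-month replicates 1 or 3.

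The ER stress response element, CCAAT and CCACG with any 9 bases between them on either strand, was found in 0.113% of the 32851 upstream windows, or in 0.129% of the genes with a window, and it stood in 10 of the 35 genes of the list with a window. Derl3 and Dnajc3 are the 2 of these 10 that rose, and the other 8 (Calr, Canx, Creld2, Ero1b, Hsp90b1, Hspa5, Pdia6 and Syvn1) had differences of 0.11 to 0.86 that did not pass. Hspa5, the main ER chaperone, was at 0.35 ± 0.18 (adjusted p = 0.278). The stretches of both genes are shown because they carry the motif beside a rise, with the motif in capitals, from RefSeq promoters on GRCm38.p6 at chr10:75893202-75893300 (Derl3, plus strand, the match being on the opposite strand) and chr14:118937787-118937885 (Dnajc3, plus strand). In Derl3 the motif spans 156 to 138 bases upstream of the start and in Dnajc3 105 to 87.
Derl3: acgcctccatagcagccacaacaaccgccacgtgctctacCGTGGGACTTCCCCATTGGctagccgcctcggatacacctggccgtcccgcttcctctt
Dnajc3: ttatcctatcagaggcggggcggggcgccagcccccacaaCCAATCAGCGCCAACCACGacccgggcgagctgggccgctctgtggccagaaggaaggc

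Fuel handling genes changed in both directions. Of 36 genes of fatty acid oxidation and PPAR targets 6 rose and 2 fell (22.2%, against 7.57% of all genes called). Pdk4, a kinase that inhibits pyruvate dehydrogenase, had the smallest p of all genes named here, at 6.77 and 6.59 at 5 weeks and 3.80, 3.89, 3.79 and 3.65 at 7 months (-2.90 ± 0.15, 7.46-fold, adjusted p = 1.23e-07). Ppargc1a, a coactivator of mitochondrial genes, was 5.97 and 5.63 and then 3.47, 4.66, 2.99 and 3.88 (-2.05 ± 0.31, adjusted p = 0.00107), although its dimmer probe set differed by -0.66 ± 0.32. Cd36 went the other way, from 3.49 and 4.15 to 6.73, 5.40, 7.21 and 6.74 (2.70 ± 0.36, adjusted p = 0.000537), as did Fabp4, a fatty acid-binding protein of adipocytes and capillaries (1.32 ± 0.20), and the pantetheinase gene Vnn1 (1.29 ± 0.16). All 5 passed whichever DKO array was left out, and the list had 3 rises without 5-week replicate 1.

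While Pdk4 fell, its relatives Pdk1 (0.99 ± 0.14, adjusted p = 0.000654) and Pdk3 (0.60 ± 0.10, adjusted p = 0.00305) rose. They were 2 of 5 rises among 36 genes of glycolysis and gluconeogenesis, with the bisphosphatase gene Fbp2 (1.33 ± 0.21) and the phosphofructokinase gene Pfkm (0.54 ± 0.10), the latter lost without 5-week replicate 1. Of this list 16.7% was called, against 7.57% of all genes, and it had 3 rises without that array. Of 74 oxidative phosphorylation subunits 4 rose and 2 fell (8.11%, against 7.57% of all genes called), with a median of 0.00, among them the complex I genes Ndufb6 (0.55 ± 0.11) and Ndufa11 (-0.41 ± 0.11). The list had between 1 and 8 rises when single DKO arrays were left out, the most without 7-month replicate 2. Ndufb6 was lost without 5-week replicate 2 and Ndufa11 without 5-week replicate 1 or 7-month replicates 1 or 3.

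In lipid synthesis 4 of 39 genes fell and 2 rose (15.4%, against 7.57% of all genes called). The desaturase gene Scd1 was 5.42 and 6.28 at 5 weeks and 3.88, 4.16, 3.03 and 4.45 at 7 months (-1.98 ± 0.31, adjusted p = 0.00164), and Fads2, which makes polyunsaturated fatty acids, fell by 0.98 ± 0.20. Lpl, the lipase that frees fatty acids from lipoproteins, was 7.97 and 7.69 and then 5.54, 6.48, 4.90 and 5.63 (-2.19 ± 0.29, adjusted p = 0.000503). Fads2 did not pass without 5-week replicate 2, and the list had 1 fall in that fit. Its 2 rises became 0 without 5-week replicate 1, 1 without 5-week replicate 2 or 7-month replicates 1 or 3, and 4 without 7-month replicate 4. Of 44 genes of amino acid and one-carbon metabolism 4 rose and 0 fell (9.09%, against 7.57% of all genes called). They included both steps that start the breakdown of branched-chain amino acids, Bcat1, the cytosolic transaminase, at 3.37 and 3.33 and then 5.72, 4.59, 6.22 and 5.85 (2.24 ± 0.35, adjusted p = 0.00154), and Bckdhb, a subunit of the dehydrogenase (1.01 ± 0.15, adjusted p = 0.001). The list had 2 rises without 5-week replicate 1 or 7-month replicates 1 or 3, and 3 rises and 4 falls without 7-month replicate 2. Of 40 antioxidant genes 6 rose and 0 fell (15%, against 7.57% of all genes called). Among them were Prdx4, the peroxiredoxin of the ER (0.82 ± 0.18), and Gpx8, an ER peroxidase (0.77 ± 0.13). Without 5-week replicate 1 the list had 0 rises by limma, without 7-month replicates 2, 3 and 4 it had 10, 3 and 3, and with the acinar mean as a covariate 2.

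Receptors and carriers of metabolic signals were often called. Of 28 lipid-sensing and gut hormone receptor genes 6 rose and 5 fell (39.3%, against 7.57% of all genes called). Ffar4, a receptor for long-chain fatty acids found on delta cells, was 4.61 and 5.15 at 5 weeks and 2.96, 2.92, 3.15 and 2.90 at 7 months (-1.90 ± 0.16, adjusted p = 1.21e-05). Ffar2, a receptor for short-chain fatty acids, rose from 6.91 and 6.72 to 8.19, 7.58, 7.97 and 7.80 (1.07 ± 0.16, adjusted p = 0.00107). The galanin receptor gene Galr1 rose by 0.83 ± 0.09 (adjusted p = 0.000111), with 7.70 and 7.82 at 5 weeks and 8.50 to 8.68 at 7 months, and Vipr2, a receptor for the peptide that Vip encodes, rose by 1.10 ± 0.17, although not without 5-week replicate 1. The list had 3 rises and 3 falls without that array, and 5 rises and 3 falls without 7-month replicate 3.

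Of 34 retinoid and thyroid hormone handling genes 6 rose and 2 fell (23.5%, against 7.57% of all genes called). Besides Aldh1a3 and Rbp4, the deiodinase gene Dio1 was 6.59 and 7.07 and then 8.35, 8.01, 8.26 and 8.09 (1.35 ± 0.15, adjusted p = 0.000129), and the anion carrier gene Slco1a5 rose by 1.19 ± 0.27. The latter was lost without either 5-week array, and the list had 2 rises without 5-week replicate 1 and 3 without 7-month replicate 3, with 1 fall in each. In the insulin and growth factor list 5 of 51 genes rose and 5 fell (19.6%, against 7.57% of all genes called). They included Fgf1 (1.33 ± 0.15) and Hbegf, a ligand of the EGF receptor (1.37 ± 0.19), upward and Igf1r (-0.60 ± 0.13) downward. Falls of this list numbered 1, 1, 4, 6, 2 and 2 with the DKO arrays left out in the order used above, rises were 3 without 5-week replicate 1, and Igf1r was lost without either 5-week array. Of 25 lactogen and serotonin genes 4 rose and 2 fell (24%, against 7.57% of all genes called). The latter were the serotonin-gated channel gene Htr3a, at 4.55 and 5.19 and then 2.60, 2.81, 3.24 and 2.82 (-2.0 ± 0.23, adjusted p = 0.000161), and Socs2 (-0.96 ± 0.26), a feedback inhibitor that was lost without 5-week replicate 2 or 7-month replicates 1, 3 or 4. Rises in this list numbered 1 without 5-week replicate 1 and 2 without 7-month replicate 3.

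Excitability genes fell more often than they rose, with 8 falls and 4 rises among 51 ion channel genes and a median of 0.00. Of this list 23.5% was called, against 7.57% of all genes. The calcium channel subunit genes Cacng4 (-1.41 ± 0.22) and Cacna2d2 (-1.34 ± 0.22) fell, while the sodium channel gene Scn3a (1.19 ± 0.16) and Clcn3, a chloride transporter of vesicles (0.61 ± 0.09), rose. Dpp10, a partner of potassium channels, fell by 1.54 ± 0.22 in its brighter probe set and differed by 0.10 in the other. The calcium sensor gene Kcnip3 was 6.59 and 7.81 at 5 weeks and 4.59, 4.95, 3.93 and 4.61 at 7 months (-2.68 ± 0.33, adjusted p = 0.00027). Gabra4, a GABA receptor subunit, rose by 1.79 ± 0.29, from 4.91 and 5.56 to between 6.60 and 7.34. Without 5-week replicate 1 the list had 2 rises and 4 falls, and without 7-month replicate 2 it had 7 and 10. Of 47 exocytosis genes 4 fell and 3 rose (14.9%, against 7.57% of all genes called). Among them were the calcium sensor genes Syt1 (-1.49 ± 0.18) and Doc2b (-1.06 ± 0.24) and, upward, Rab3d (0.72 ± 0.19) and the granule protein gene Ptprn (0.62 ± 0.15). Of these 4 only Syt1 passed without 5-week replicate 1. Rab3d was also lost without 7-month replicates 1, 3 or 4 and Ptprn without replicate 3, and with the DKO arrays left out in the order used above the exocytosis list had 0, 3, 1, 3, 0 and 2 rises and 2, 4, 3, 8, 3 and 3 falls.

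Part of the genes of the islet's vessels rose. Of 23 pericyte and smooth muscle genes 9 rose and 0 fell (39.1%, against 7.57% of all genes called). All 23 differences were above 0, and the median was 0.35. For 14 of the 23 all 7-month arrays were above both 5-week arrays, against 15.7% of all genes. Acta2, smooth muscle actin, was 5.74 and 6.36 at 5 weeks and 7.87, 7.59, 7.56 and 8.05 at 7 months (1.72 ± 0.17, 3.3-fold, adjusted p = 4.94e-05). Rgs5, a regulator of G protein signalling that marks pericytes (0.77 ± 0.12), and Abcc9, the potassium channel subunit of pericytes (1.14 ± 0.15), rose and passed whichever DKO array was left out. Pdgfrb, the receptor that holds pericytes to vessels (0.98 ± 0.19), and the adhesion molecule gene Mcam (0.65 ± 0.12) rose and were lost without 5-week replicate 1. The CArG box, the site of serum response factor in muscle genes, was the third motif searched. It occurs in 1.47% of the upstream windows, and in 1.47% of the genes with a window, and, of the 18 genes of this list with a window, in Myl9 alone, a myosin light chain gene (0.77 ± 0.16, adjusted p = 0.00793). The list had 4 rises without 5-week replicate 1, between 8 and 10 without any other DKO array, and 3 with only the 6 DKO arrays in the fit.

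Of 43 endothelial genes 11 rose and 2 fell (30.2%, against 7.57% of all genes called), with a median of 0.28. Tek, the angiopoietin receptor gene, was 5.87 and 6.20 at 5 weeks and 6.92, 7.09, 7.05 and 6.95 at 7 months (0.96 ± 0.11, adjusted p = 0.00018). Angpt2, a ligand of that receptor (0.94 ± 0.14), the phosphatase gene Ptprb (0.95 ± 0.13) and the matrix protein gene Mmrn2 (0.88 ± 0.13) also rose, while Prox1, known from lymphatic endothelium but also from endocrine cells, fell by 0.87 ± 0.12. These 5 passed whichever DKO array was left out, and the list had 4 rises without 5-week replicate 1, between 9 and 12 without any other, and 5 with only the 6 DKO arrays in the fit. In WT islets 6 of the 43 rose, against 1.35% of all genes there. The summed linear signal of the list was 5106 to 5690 at 5 weeks and 5980 to 6643 at 7 months.

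Matrix genes followed in part. Of 53 matrix processing genes 9 rose and 0 fell (17%, against 7.57% of all genes called), with a median of 0.18. Thbs1, encoding the antiangiogenic matrix protein thrombospondin, was 6.63 and 6.97 and then 8.34, 8.05, 8.60 and 8.65 (1.61 ± 0.19, adjusted p = 0.000174). The laminin gene Lama5 (1.34 ± 0.20) and the crosslinking enzyme gene Loxl2 (0.82 ± 0.12) rose, as did P3h2, a collagen prolyl hydroxylase (1.57 ± 0.16), whose dimmer probe set gave 0.44. Of 42 collagen genes the basement membrane chains Col4a1 (0.60 ± 0.14) and Col4a2 (0.55 ± 0.15) rose and 3 fell (11.9%, against 7.57% of all genes called), with a median of 0.03. Both rises were lost without either 5-week array, that of Col4a2 also without 7-month replicates 3 or 4. Of 43 stellate cell and fibroblast genes 5 rose and 2 fell (16.3%, against 7.57% of all genes called). The rises included Aspn, a small matrix proteoglycan (1.32 ± 0.20), and Cygb, a globin of stellate cells (0.96 ± 0.17), the latter lost without 5-week replicate 1. The mean level of that list was highest in 7-month replicate 4, at 0.58 against -0.01 to 0.27 in the others, and the list had 1 rise and 0 falls by limma without 5-week replicate 1. Matrix processing had 4 rises without the same array or with only the 6 DKO arrays in the fit, and 14 without 7-month replicate 2.

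**Figure D3:**
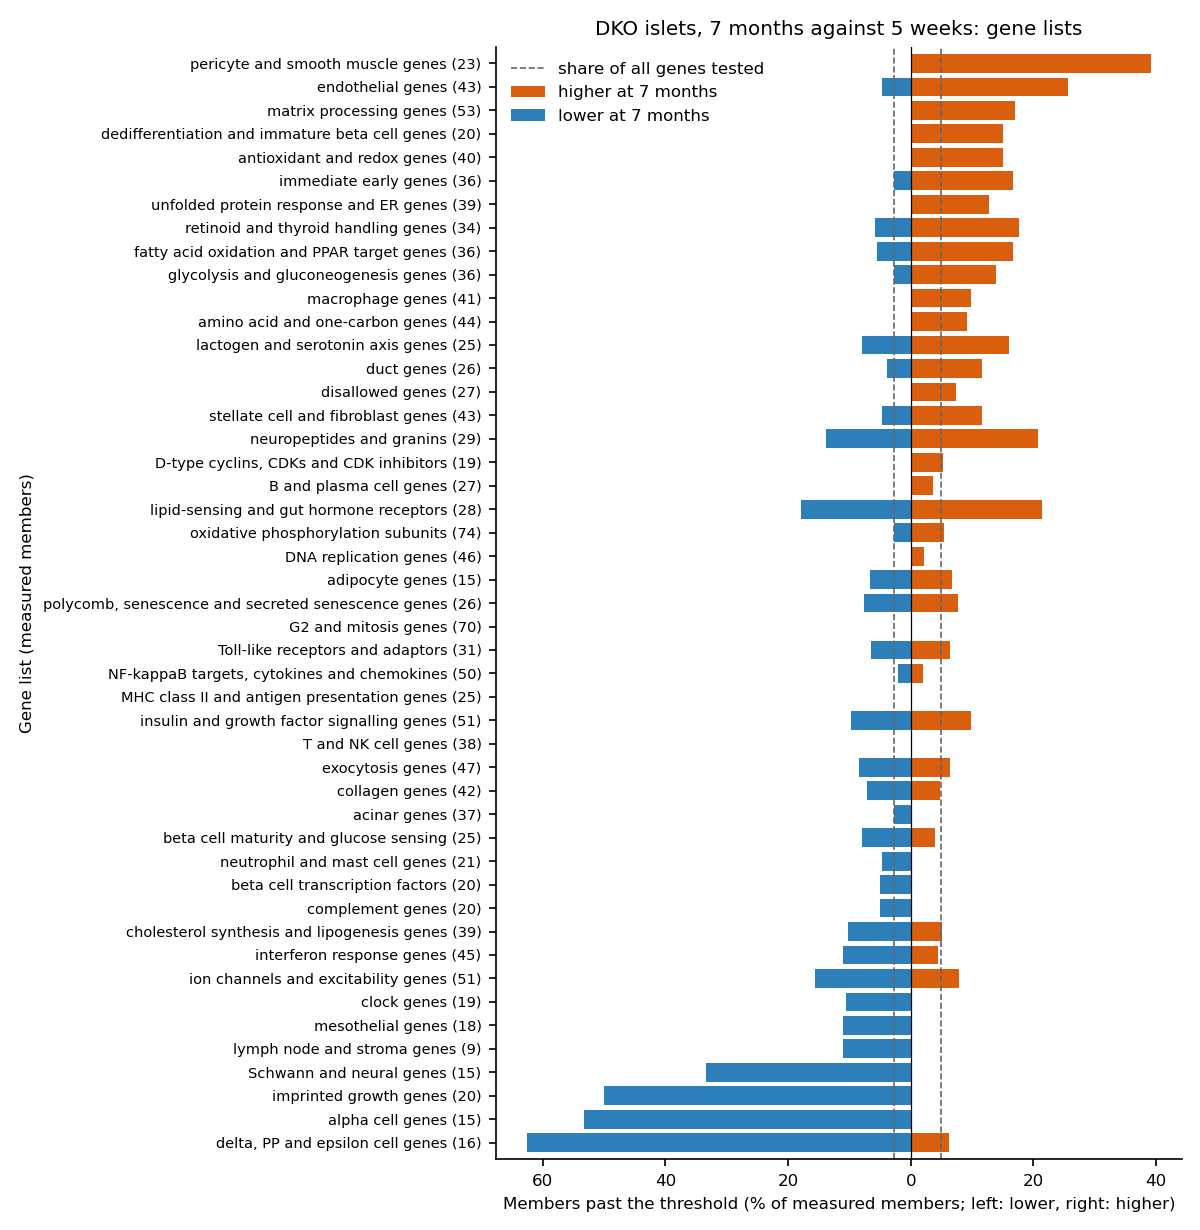
Share of the measured members of each gene list that passed (limma adjusted p below 0.05) in DKO islets at 7 months against 5 weeks, in percent, with rises drawn to the right in orange and falls to the left in blue, for the lists with at least 9 measured members (number in brackets). Dashed lines mark the shares over all 18820 genes, 4.86% higher and 2.7% lower, which many lists pass on either side; the longest bars are those of pericyte and endothelial genes on the right and of delta, alpha, imprinted and neural genes on the left.

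Some genes of nerves and of the islet surface fell. Of 15 Schwann and neural genes 5 fell and 0 rose (33.3%, against 7.57% of all genes called). In this list 1 difference was above 0, and the median was -0.34. Fabp7, a lipid-binding protein of glia, was 5.57 and 6.33 at 5 weeks and 3.22, 3.68, 3.29 and 4.05 at 7 months (-2.39 ± 0.23, adjusted p = 3.43e-05). Uchl1, a neuronal and endocrine ubiquitin hydrolase (-1.04 ± 0.14), and the growth cone gene Gap43 (-0.90 ± 0.20) fell too, Gap43 not without 5-week replicate 2. Falls in the list numbered 4, 2, 3, 5, 4 and 4 with the DKO arrays left out in the order used above, and 3 with the acinar mean as a covariate or with only the 6 DKO arrays in the fit. In WT islets 5 of the 15 fell, with a median of -0.30, against 1.01% of all genes there. Of 18 mesothelial genes 2 fell (11.1%, against 7.57% of all genes called), and the median was -0.13. They were Msln and the membrane protein gene Gpm6a (-1.80 ± 0.17, adjusted p = 3.56e-05), which neural cells also express.

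Immune genes did not move as a whole. Of 41 macrophage genes 4 rose and 0 fell (9.76%, against 7.57% of all genes called), with a median of 0.07: Adgre1, a surface receptor of macrophages, at 3.23 and 3.65 and then 4.18, 4.39, 4.43 and 4.67 (0.98 ± 0.17, adjusted p = 0.00275), the lysozyme gene Lyz2 (1.07 ± 0.25), the integrin gene Itgam (0.88 ± 0.18) and the mannose receptor gene Mrc1 (0.72 ± 0.18). All 4 were lost without 5-week replicate 1, and all but Adgre1 without 5-week replicate 2, and Mrc1 also without 7-month replicates 3 or 4. Lyz2 was 7.76 in 7-month replicate 4 and 6.52 to 6.66 in the others. Of 38 T and NK cell genes and of 25 MHC class II and antigen presentation genes 0 passed by limma, and of 27 B and plasma cell genes Ebf1 rose (0.81 ± 0.22), which stromal cells express as well and which was lost without 5-week replicate 1 or 7-month replicates 3 or 4. Mean levels of the T and NK list were -0.02 and -0.11 at 5 weeks and -0.05, 0.00, -0.01 and 0.81 at 7 months, and those of the B and plasma list -0.12 and -0.12 and then -0.02, 0.06, -0.10 and 0.91, so that replicate 4 alone stood out. Its summed linear signals were 744 and 757 for these lists, against 396 to 436 and 284 to 347 over the other DKO arrays.

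Innate signalling genes were called in small numbers and in both directions, at 12.9% of the Toll-like receptor list, 4% of the NF-kappaB list and 15.6% of the interferon list, against 7.57% of all genes. Of 31 genes of Toll-like receptors and their adaptors Tlr2 and Cd36, a coreceptor of TLR2, rose, while Pycard, the inflammasome adaptor gene (-0.59 ± 0.14), and Irak3, a brake on Toll-like receptor signalling (-0.54 ± 0.10), fell. Of 50 NF-kappaB target, cytokine and chemokine genes Ccl11, encoding eotaxin, rose (1.19 ± 0.26) and Cxcl13, a B cell attractant, fell (-0.81 ± 0.19). Of 45 interferon response genes 5 fell and 2 rose: the RNA sensor gene Ifih1 was 6.85 and 6.70 and then 5.80, 5.95, 5.66 and 5.67 (-1.0 ± 0.11, adjusted p = 0.000102), and Irf7 fell by 0.92 ± 0.23, while the deconjugase gene Usp18 rose by 0.81 ± 0.13. Falls in that list numbered 1, 1, 1, 7, 1 and 2 with the DKO arrays left out in the order used above. Irf7 was lost without either 5-week array or 7-month replicates 1 or 3, Cxcl13 without either 5-week array, Pycard and Ccl11 without 5-week replicate 1, and Irak3 without 5-week replicate 2. Of 36 immediate early genes 6 rose and 1 fell (19.4%, against 7.57% of all genes called). Among them were Zfp36, which speeds mRNA decay (0.83 ± 0.14), and downward Gadd45b (-1.37 ± 0.29), which did not pass without 5-week replicate 1. The list had 1 rise without that array and 3 without 5-week replicate 2 or 7-month replicate 3.

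Exocrine genes were mostly lower at 7 months, and all but 1 did not pass in the main fit. The SE of that fit also draws on the WT arrays, whose acinar means ranged from -1.84 to 0.58. Of 37 acinar genes 1 fell, the ER protein gene Erp27 (-0.66 ± 0.18, adjusted p = 0.0368), and the median was -0.73. For 20 of the 37 all 7-month arrays lay below both 5-week arrays, against 11.1% of all genes. The phospholipase gene Pla2g1b was 8.70 and 8.54 at 5 weeks and 6.78, 6.81, 6.50 and 6.97 at 7 months (-1.86 ± 0.57, adjusted p = 0.0617). It passed by limma with only the 6 DKO arrays in the fit (adjusted p = 0.00234) and with the acinar mean as a covariate (0.00189). With only those arrays Erp27 (0.0945), Cuzd1 (0.11) and Ctrc (0.28) did not pass. Summed linear signals of the list were 18241 and 23487 at 5 weeks and 9004 to 13962 at 7 months, and its part in the other results was tested only by the covariate described above, under which the alpha cell list still had 8 falls, the pericyte list 7 rises and the endothelial list 9. Erp27 passed only in the fit without 7-month replicate 2. Of the 7 Reg genes, secreted proteins of acinar and stressed islet cells, 0 passed, with Reg2 at -0.94 ± 0.48. In 26 duct genes 3 rose and 1 fell (15.4%, against 7.57% of all genes called). The fall was that of Tspan8, a tetraspanin (-1.35 ± 0.26, adjusted p = 0.00578), which was lost without 5-week replicate 1. With the DKO arrays left out in the order used above the duct list had 0, 1, 1, 2, 0 and 3 rises, and with the acinar mean as a covariate 0 by limma.

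**Figure D4:**
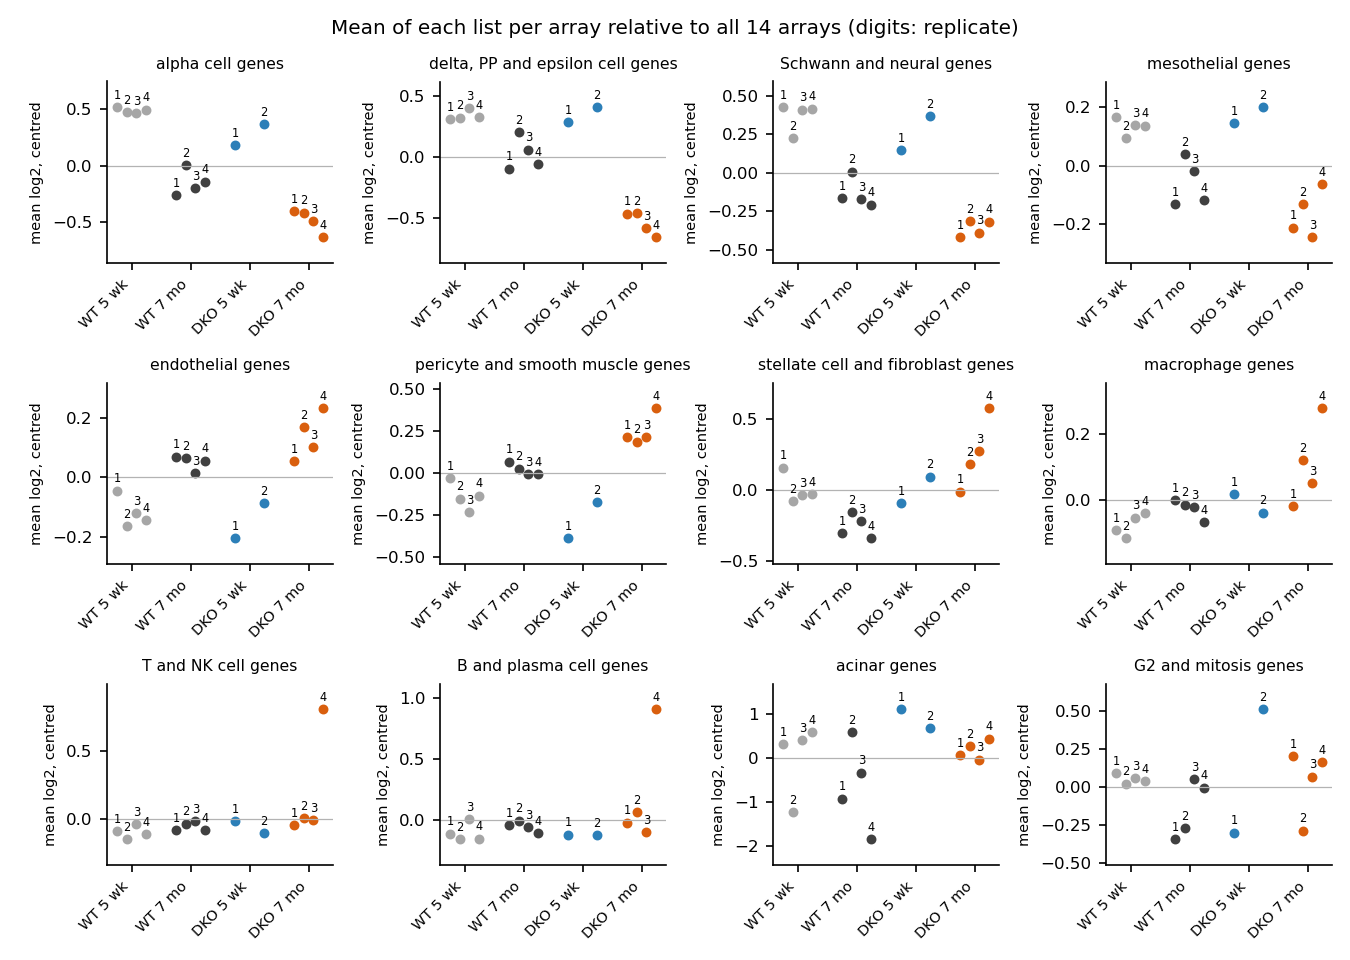
Mean level of 12 gene lists in each of the 14 arrays, in log2 units relative to the mean of all arrays (vertical axis, each panel with its own range), with the replicate number beside each point. At 7 months the DKO arrays lie at -0.63 to -0.40 for alpha cell genes and at 0.19 to 0.39 for pericyte genes, below and above the DKO arrays at 5 weeks, and replicate 4 alone is high for T, NK, B and plasma cell genes.

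The same comparison in WT islets, which shares no array with the DKO one, gave 446 calls (2.37%), 255 higher (1.35%) and 191 lower (1.01%). The groups there are larger at 5 weeks, with 4 arrays, and the median SE was 0.11 against 0.14. Both genotypes called 253 genes, 17.8% of the DKO calls and 56.7% of the WT calls, and all 253 had the same direction. Of the 915 genes that rose in DKO islets 840 were above 0 in WT, and of the 509 that fell 420 were below 0, together 88.5%, against 63.4% of all genes. The changes were smaller in WT, with a median of 0.23 for the genes that rose in DKO islets (0.62 there) and -0.22 for those that fell (-0.65 there), a comparison that favours DKO since its calls chose the genes. Some genes changed alike, such as Slc35f4, a nucleotide sugar transporter family member (2.25 ± 0.20 in DKO and 2.32 in WT), Gabra4 (1.79 and 1.96), Mcoln3, a lysosomal channel (-2.06 and -1.91), and Sstr2 (-1.39 and -1.40).

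**Figure D5:**
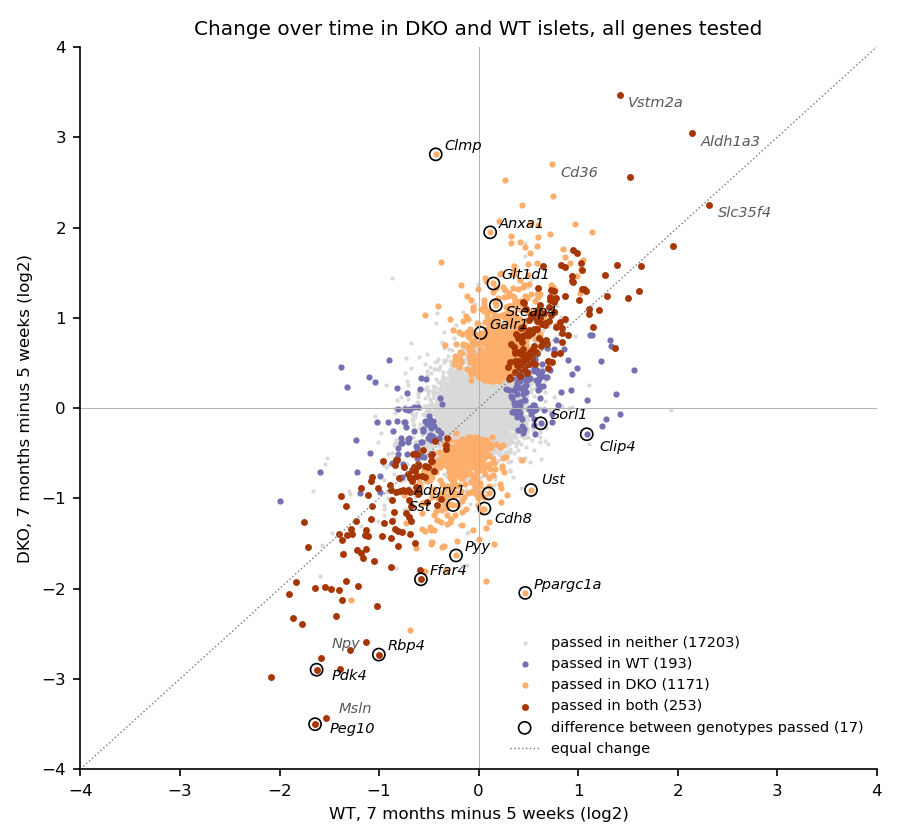
Difference between 7 months and 5 weeks (log2) in DKO islets (vertical axis) against that in WT islets (horizontal axis) for all 18820 genes, coloured by the genotype or genotypes in which a gene passed, with rings on the 17 genes whose difference between genotypes passed and a dotted line at equal change. The 253 genes that passed in both lie at the lower left and upper right, and Ppargc1a, Ust and Clmp lie on opposite sides of 0 in the 2 genotypes.

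Whether the change over time differed between genotypes was tested directly, and 17 genes passed (0.0903%), 5 with a more positive change in DKO (0.0266%) and 12 with a more negative one (0.0638%). Ppargc1a fell in DKO islets and was at 0.47 ± 0.25 in WT, a difference of -2.52 ± 0.40 (adjusted p = 0.0197). Of the endocrine genes Pyy (-1.41 ± 0.19), Rbp4 (-1.73 ± 0.23) and Sst (-0.82 ± 0.13) had more negative changes in DKO, the WT changes being -0.23, -1.0 and -0.26. Peg10 (-1.86 ± 0.26), Pdk4 (-1.27 ± 0.19) and Ffar4 (-1.32 ± 0.21) fell in both genotypes and further in DKO. The uronyl sulfotransferase gene Ust fell from 3.90 and 3.86 to between 2.59 and 3.20 in DKO and was at 0.53 in WT (difference -1.43 ± 0.21), its fall being lost without DKO 5-week replicate 1. Cdh8, a neuronal cadherin (-1.17 ± 0.18), and Adgrv1, a large adhesion receptor (-1.05 ± 0.14), also fell in DKO, while Clip4 (-1.38 ± 0.23) and the sorting receptor gene Sorl1 (-0.79 ± 0.13) rose in WT and did not pass in DKO.

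On the positive side stood Clmp, at 2.81 in DKO and -0.43 in WT (difference 3.24 ± 0.50, adjusted p = 0.0197), Anxa1, a phospholipid-binding mediator that dampens inflammation (1.83 ± 0.27), Glt1d1 (1.23 ± 0.19), the metalloreductase gene Steap4 (0.97 ± 0.14) and Galr1 (0.81 ± 0.12). Sst, Cdh8, Adgrv1, Sorl1, Steap4, Glt1d1 and Galr1 are named because the list of 17 is short, not by size. Clmp was 2.65 and 3.30 at 5 weeks and 5.87, 4.56, 6.58 and 6.14 at 7 months in DKO islets. Anxa1 was 2.68 and 3.53 and then 5.10, 4.95, 4.79 and 5.38. Both were thus near the lower end of the scale at 5 weeks, and all 7-month arrays were above them. No difference between genotypes in the change of the lists was tested as a whole. The median difference was 0.00 over the 15 alpha cell genes, of which Peg10 alone passed, and -0.63 over the 16 delta, pancreatic polypeptide and epsilon genes. Of their members, 3 of 16 delta, pancreatic polypeptide and epsilon genes passed, 2 of 28 lipid-sensing and gut hormone receptors, 2 of 36 fatty acid oxidation genes, 0 of 23 pericyte genes and 0 of 43 endothelial genes by limma. The share over all genes was 0.0903%. The number of genes that passed moved with single arrays, being 2 without DKO 5-week replicate 1, 36 without DKO 5-week replicate 2, 27 without DKO 7-month replicate 1, 185 without DKO 7-month replicate 2, 8 without WT 5-week replicate 3 and 10 without WT 7-month replicate 2, and it was 0 by limma when p was adjusted over all probe sets of the array. Of the 18820 genes 1909 had an unadjusted p below 0.05 for this difference.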

How the data were processed

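Islet RNA from 14 mice was hybridised to 1 whole-transcript array each. The authors deposited log2 signals made with RMA, per the submitters' processing notes; its version and settings are not given in the sources used here. Of 35556 probe sets, 21218 had 1 gene symbol in the platform annotation, 1881 several and 12457 none. The brightest probe set of each of 18820 genes was kept, with no filter on low values. One mean per group was fitted over all 14 arrays with limma 3.58.1 in R 4.3.3 (lmFit, eBayes), with Benjamini-Hochberg adjustment over 18820 genes and a threshold of 0.05. The DKO groups have 2 and 4 arrays, which limits the precision. In simulated data 52% of 1.5-fold and 96% of 2-fold changes were recovered, and 4.92% of calls were false. The simulated noise was independent between genes, alike in all groups and without effects shared over an array. These shares therefore do not give the error rate of the real calls.

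The members and the 50 gene lists (1464 genes measured) were chosen with earlier results of these data known, and motifs after seeing these values. Named genes were Tlr2, Tlr4, the 20 largest rises and 20 largest falls (placeholder names passed over), for each list the members of smallest p (5 at most), a few set markers, and the 10 largest differences between genotypes. Others named were chosen after their values were seen, among them Chgb, Pdyn, Lepr and genes with a motif. Upstream windows of 250 bases came from RefSeq on GRCm38.p6. Alternatives changed the arrays, variance prior, filter, probe set rule, normalization, centring, covariates and weights.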

Additional observations from a re-analysis of the deposited data

Results flagged for a closer look

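The change over time differed between genotypes, by limma's test of the difference itself, for 17 genes, 12 of them named by the rule. For these, DKO change minus WT change was 3.24 for Clmp, 1.83 for Anxa1, 0.81 for Galr1, -0.82 for Sst, -1.27 for Pdk4, -1.32 for Ffar4, -1.38 for Clip4, -1.41 for Pyy, -1.43 for Ust, -1.73 for Rbp4, -1.86 for Peg10 and -2.52 for Ppargc1a.

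In 21 of the 268 named genes 1 array of the DKO group at 7 months lay far from the other 3. Chance alone would mark about 1 in 20 genes so, and genes of 1 array are not independent. Replicate 2 was that array for 12 genes. It was low for Bckdhb (6.32), C1qtnf1 (4.60), Cck (2.96), Chaf1a (3.36), Derl3 (8.43), Ptn (3.20), Ptprn (10.54), Rrm2 (4.39), Sel1l (9.25), Vgf (5.11) and Vstm2a (5.88), and it was high for Reg3b (5.53 against 3.64 to 3.94). Replicate 4 was high for the immune cell genes Bank1 (4.08), Ccr7 (5.53), Jchain (6.25, against 2.68 to 3.21), Lyz2 (7.76) and Traf1 (3.79). Replicate 3 was low for Cd86 (3.39) and slightly high for Iapp (12.92), and replicate 1 was low for Col12a1 (2.51) and Per1 (6.33).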

How the results depend on the processing

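The 1424 genes of the DKO comparison numbered 1134 to 1685 under another variance prior, a filter on dim genes, the mean of probe sets, repeated quantile normalization, median centring, all probe sets, the number in the description label or array weights. They numbered 891 with the acinar covariate, 347 when the 6 DKO arrays were fitted alone, 378 to 2051 with 1 array left out, and 1647 without 7-month replicates 2 and 4, an alternative chosen after seeing the data. Whether the replicate numbers pair the samples could not be told. The 2 same-numbered pairs had r of 0.0853 and -0.131, but with only 2 arrays at 5 weeks the values of 1 mirror those of the other. With the replicate number as a block 864 genes passed, and 10 for the difference between genotypes. The 446 genes of the WT comparison became 283 with the acinar covariate, 786 with array weights and 221 to 389 with 1 array left out. The 17 genes of the difference became 46 with the trended robust prior, 35 without dim genes, 0 over all probe sets by limma, 28 with array weights and 2 to 185 with 1 array left out. The causes were not tested. Of 4492 values of the named genes under alternatives, 3968 kept their call or lack of one, 456 lost the call and 68 gained one. Among values called in either fit 0 reversed direction. Genes called in neither could change sign, such as Mki67, which ran from -1.33 to 1.37 with 1 DKO array left out. With only the 6 arrays, 84 of the 180 named genes that passed lost their call.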
